A study of Mus musculus with 8 samples.

Results

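The transcripts described here encode the enzymes that add and remove the phosphate on translation factor eIF2, together with eIF2alpha, which carries that phosphate, and eIF2B, which is inhibited by it. The members are 10 genes chosen by symbol, of 55414 gene identifiers in the count tables: the kinases Eif2ak1, Eif2ak2, Eif2ak3 and Eif2ak4, the phosphatase subunits Ppp1r15a and Ppp1r15b, the eIF2alpha gene Eif2s1, and the eIF2B subunit genes Eif2b1, Eif2b4 and Eif2b5. All 10 were found and all 10 passed the filter on low counts, with between 326 and 2452 counts per library. RNA was sequenced from pancreatic islets of C57BL/6 mice at 5 weeks of age, in 8 libraries of 2 groups of 4. Mice of the TG group had the genotype Ins2 cre(+/-) ATF4 TG(+/-), and mice of the WT group the genotype Ins2 cre(-/-) ATF4 TG(+/-). Both groups therefore carried the ATF4 transgene in the heterozygous state, and they differed by label in the Cre driver named after the insulin gene Ins2. The WT group is thus not free of the transgene, no group carried the Cre driver without it, and an effect of the Cre driver itself cannot be told apart from one of the transgene. The labels do not say whether the libraries of a group came from separate animals, so p-values measure the spread between these samples, which may be technical.

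Phosphorylation of eIF2alpha is the shared step of the integrated stress response. Each kinase senses another stress, and the phosphate turns eIF2 into an inhibitor of eIF2B, the exchange factor that reloads eIF2 with GTP. General protein synthesis then slows, while the mRNA of ATF4 is translated more efficiently, and ATF4 switches on genes that include Ppp1r15a, whose product brings a phosphatase to eIF2alpha and closes the loop. Pancreatic beta cells depend on this circuit because of their heavy load of secreted protein, and loss of PERK causes early diabetes in mice and humans. The comparison of TG with WT islets asks whether the transcripts of this upstream circuit differ where the ATF4 transgene is combined with the Cre driver.

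The libraries held 16521087 to 22499999 counts assigned to genes, and levels are given in CPM, in which each gene's count is divided by the scaled size of its library. Transcripts of a list of 8 beta cell genes summed to 49781 to 63790 CPM in TG and 102162 to 122761 CPM in WT, and all 8 fell. Their falls were unequal, with log2 fold changes from −2.65 to −0.58. Sets of genes from other cell types moved the other way: all 10 endothelial genes rose (1312 to 1344 CPM summed in TG, 544 to 939 CPM in WT), as did 7 of 12 stromal genes (3534 to 6839 against 883 to 2959 CPM), 8 of the 11 tested of 12 macrophage and lymphocyte genes (182 to 470 against 104 to 165 CPM) and 4 of 6 ductal genes. None of the 5 alpha cell, 3 delta and PP cell or 10 acinar genes was called by edgeR's quasi-likelihood test (0, 1 and 0 at an unadjusted p under 0.05), and 1 of 4 Schwann cell genes rose. The acinar genes summed to 6360 to 40386 CPM in TG and 1239 to 12298 CPM in WT. In islet pieces sequenced whole, fewer cells of a type and less RNA per cell cannot be told apart. No gene of these lists was at 0 in every library, and the lymphocyte marker Cd3e was at 0 in at least 1 library.

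Of the 10 members, 1 rose, 0 fell and 9 were not called at an adjusted p under 0.05 by edgeR's quasi-likelihood test with Benjamini-Hochberg adjustment over all 20509 tested genes. The member that rose was Ppp1r15a. The background in this comparison was 20.1% of tested genes called, 12.1% higher and 8.06% lower in TG, so the share of members called did not exceed that of genes in general. At an unadjusted p under 0.05 there were 2 members higher in TG, Ppp1r15a and Eif2ak4, and 0 lower. DESeq2 and limma-voom also called 1 member higher and 0 lower, with 2 higher and 0 lower at an unadjusted p under 0.05. TG and WT libraries did not overlap for 3 members, Ppp1r15a, Eif2ak4 and Eif2b1, beside 22.6% of all tested genes. The median log2 fold change of the members was 0.0059 and that of all tested genes −0.0019. The median absolute log2 fold change was 0.11 for the members and 0.30 for all tested genes, with median standard errors of 0.11 and 0.21. None of the 9 other members was called under any of 22 alternative settings. With group as the only term, the 95% intervals of these 9 lay between 0.780-fold and 1.35-fold of WT. The estimates themselves moved with the covariates described below for Ppp1r15a, with log2 fold changes up to 0.53 (SE 0.20) for Eif2ak4 and up to 0.36 (SE 0.18) for Eif2s1.

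**Figure D1:**
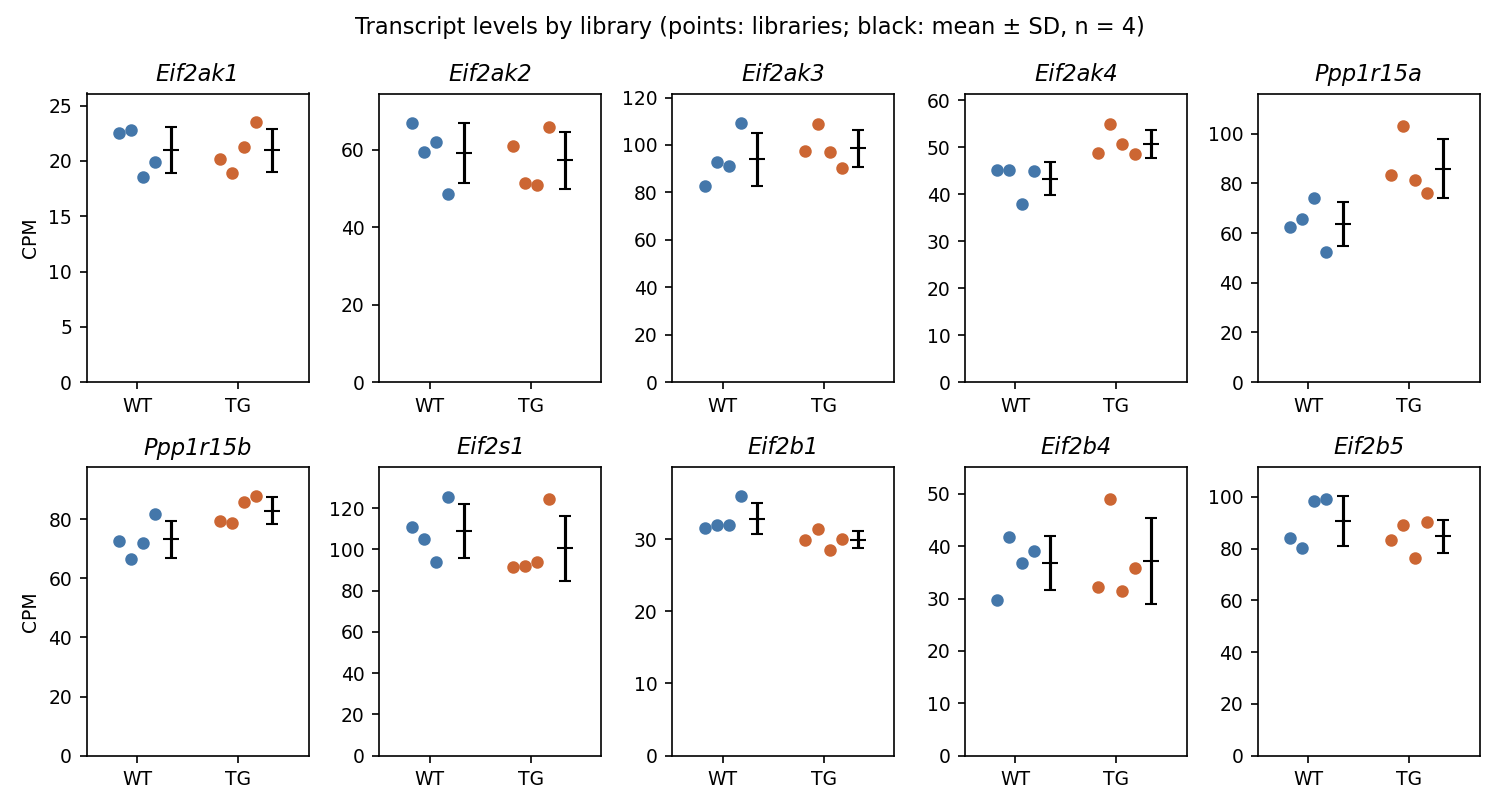
Transcript levels of the 10 members in CPM (vertical axes start at 0), with 1 point per library and the mean ± SD of 4 libraries in black. All 4 TG points of Ppp1r15a (76.1 to 103 CPM) lie above the 4 WT points (52.4 to 74.0 CPM), whereas the groups overlap for 7 of the members.

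No kinase gene was called, although the groups did not overlap for Eif2ak4. Of the 4 kinase genes, edgeR called 0 in either direction, 1 was higher and 0 lower at an unadjusted p under 0.05, and DESeq2 and limma-voom gave the same counts. Their summed level was 227.6, 234.3, 220.3 and 228.2 CPM in TG replicates 1 to 4, and 217.1, 220.2, 209.6 and 222.9 CPM in WT replicates 1 to 4. The lowest TG sum thus fell within the WT range, and the other TG sums lay above it.

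Eif2ak3 (ENSMUSG00000031668) encodes PERK, the kinase in the endoplasmic reticulum membrane that responds to unfolded proteins. Its level in TG replicates 1 to 4 was 97.7, 109.0, 97.2 and 90.3 CPM, and in WT replicates 1 to 4 it was 82.6, 92.8, 91.3 and 109.3 CPM. The groups overlapped almost fully, and the highest value of all belonged to a WT library. Means were 98.5 ± 7.74 CPM in TG and 94.0 ± 11.1 CPM in WT (SD, n = 4 each), a log2 fold change of 0.07 (SE 0.098, 95% interval −0.14 to 0.28, edgeR adjusted p = 0.693).

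Eif2ak4 (ENSMUSG00000005102) encodes GCN2, which is activated by uncharged tRNA when amino acids run short. Its level was 48.8, 55.0, 50.8 and 48.6 CPM in TG and 45.2, 45.3, 38.0 and 45.0 CPM in WT. Every TG library was above every WT library, by the widest margin over WT replicate 3. The means, 50.8 ± 2.99 CPM and 43.4 ± 3.60 CPM (SD, n = 4 each), gave a log2 fold change of 0.23 (SE 0.095, interval 0.03 to 0.43), with an edgeR p of 0.0287 that became 0.107 after adjustment. Eif2ak4 was therefore not called. Its log2 fold change was 0.53 with the endothelial and stromal covariate (adjusted p = 0.282), and without TG replicates 2 and 3 it was 0.12 (adjusted p = 0.644).

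Eif2ak2 (ENSMUSG00000024079) encodes PKR, which binds double-stranded RNA and is itself induced by interferon. The TG libraries measured 60.9, 51.4, 51.0 and 65.9 CPM and the WT libraries 66.8, 59.4, 61.9 and 48.6 CPM. High and low values occurred in both groups, and the fold change was −0.05 on the log2 scale (SE 0.11, interval −0.29 to 0.20, edgeR adjusted p = 0.826). A list of 17 other interferon-inducible genes was also chosen with earlier results of these data known. Of these genes 7 rose and 0 fell, beside 12.1% of all tested genes called higher. The list median log2 fold change was 0.49, and summed levels were 302 to 350 CPM in TG and 206 to 299 CPM in WT. The genes of that list with the lowest adjusted p were the antiviral genes Oasl2 (log2 fold change 1.13, adjusted p = 0.0019) and Rtp4 (1.03, adjusted p = 0.00296) and the ubiquitin-like modifier Isg15 (1.31, adjusted p = 0.00718). The PKR activator Prkra, also called PACT, had a log2 fold change of 0.28 (adjusted p = 0.119), and the PKR inhibitor Tarbp2 one of −0.15.

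The start of Eif2ak2 carries letters that resemble an interferon-stimulated response element, and its sequence is shown because 7 genes of the interferon list rose and this one did not pass the test; the difference between them was not tested. The window holds 250 bases before and 50 bases after the annotated start, from the RefSeq table of GRCm38.p6, chr17:78882523-78882822, minus strand, written 5′ to 3′. Capitals mark GAAANNGAA, in 2 matches that overlap each other, downstream of the start.

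Eif2ak2: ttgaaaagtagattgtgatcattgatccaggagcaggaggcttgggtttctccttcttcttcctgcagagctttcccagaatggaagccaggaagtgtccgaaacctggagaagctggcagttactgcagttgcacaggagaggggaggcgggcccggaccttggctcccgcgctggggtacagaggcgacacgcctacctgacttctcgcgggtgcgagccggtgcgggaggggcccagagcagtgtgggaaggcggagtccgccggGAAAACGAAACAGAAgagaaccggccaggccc

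Searched on both strands, GAAANNGAA was found in 3 of the 10 member windows (Eif2ak2, Ppp1r15a and Eif2s1) and in 8.56% of all 32851 windows of the same length. A match is a run of letters and not a measured binding site.

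Eif2ak1 (ENSMUSG00000029613) encodes HRI, the kinase known from heme shortage in red cell precursors and from mitochondrial stress. In CPM, without regard to length, it was the lowest of the kinases, at 20.2, 18.9, 21.2 and 23.5 in TG and 22.6, 22.8, 18.5 and 19.9 in WT. The group means differed by less than the spread in either group, with a log2 fold change of −0.0003 (SE 0.12, interval −0.26 to 0.26, edgeR adjusted p = 0.999). Dele1, whose product carries the mitochondrial stress signal to HRI, did fall. It measured 51.9, 60.1, 58.9 and 55.5 CPM in TG and 72.5, 77.0, 79.2 and 69.4 CPM in WT, and the groups did not overlap. Its log2 fold change was −0.40 (SE 0.087, 1.32-fold lower, edgeR adjusted p = 0.0046). Oma1, the mitochondrial protease that cleaves the DELE1 protein, had a log2 fold change of −0.20 and was not called. The call of Dele1 was lost with the endothelial and stromal, macrophage and lymphocyte, or interferon list as a covariate (a list enters as its mean log2 CPM), while its log2 fold change was −0.46 (adjusted p = 0.334), −0.60 (adjusted p = 0.0942) and −0.46 (adjusted p = 0.0747).

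Per kilobase of merged exons, the kinase transcripts were in the same order by mean in both groups. Eif2ak3 made up 43.0% ± 3.20 of the summed level of the 4 kinases in TG and 42.5% ± 4.75 in WT (SD, n = 4 each). The share of Eif2ak2 was 29.4% ± 3.50 and 31.6% ± 4.37, that of Eif2ak4 17.9% ± 1.04 and 15.8% ± 1.03, and that of Eif2ak1 9.72% ± 0.953 and 10.1% ± 0.882. The shares overlapped between groups except that of Eif2ak4, which was 16.9% to 19.0% in TG and 14.3% to 16.5% in WT. Per kilobase of coding sequence the Eif2ak4 share overlapped too, since the highest WT share (10.2%) lay within the TG range, whose upper end was 12.01%. By coding length, Eif2ak2 came first instead, at 42.5% in TG and 44.7% in WT, ahead of Eif2ak3 at 33.6% and 32.6%.

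Among the phosphatase subunits, the stress-inducible one rose and the constitutive one was not called. Ppp1r15a (ENSMUSG00000040435) encodes GADD34, which pairs with protein phosphatase 1 and directs it to eIF2alpha, and it is a textbook target of ATF4. Its level was 83.2, 103.0, 81.4 and 76.1 CPM in TG replicates 1 to 4 and 62.5, 65.5, 74.0 and 52.4 CPM in WT replicates 1 to 4. All TG values exceeded all WT values, with the narrowest gap between TG replicate 4 and WT replicate 3. Means were 86.0 ± 11.8 CPM and 63.6 ± 8.92 CPM (SD, n = 4 each), which is 1.35-fold higher in TG (interval 1.14 to 1.60). The log2 fold change was 0.43 (SE 0.12, edgeR adjusted p = 0.0158).

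The sequence around the Ppp1r15a start is shown because this was the one member that rose, and because ATF-type factors bind cAMP response element letters. The window is chr7:45526219-45526518 of GRCm38.p6, minus strand, from RefSeq, with the same extent as above. Capitals mark GAAANNGAA, with its first base at position −220 from the start, and TGACGTCA, with its first base at position −12.

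Ppp1r15a: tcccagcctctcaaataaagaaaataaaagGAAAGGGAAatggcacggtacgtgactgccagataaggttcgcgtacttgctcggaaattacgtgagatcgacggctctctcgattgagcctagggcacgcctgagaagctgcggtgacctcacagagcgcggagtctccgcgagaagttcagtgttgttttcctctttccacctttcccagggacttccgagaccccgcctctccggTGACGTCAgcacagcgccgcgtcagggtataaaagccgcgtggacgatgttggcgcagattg

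Ppp1r15a was the one gene whose window held TGACGTCA among the 10 windows of 9 members, beside 1.79% of all windows of that length. The composite C/EBP-ATF letters TGATGNAA, searched on both strands, were in 0 of the 10 windows and in 3.97% of all windows. The table has 2 windows for Eif2ak4 and gave none for Ppp1r15b. These counts describe letters only, and no binding was measured.

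A list of 14 other known ATF4 and CHOP target genes was chosen with earlier results of these data known, so its counts are a description. Of these genes 13 rose and 0 fell, beside 12.1% of all tested genes called higher. Their median log2 fold change was 1.87, and that of Ppp1r15a was 0.43. The lowest adjusted p belonged to the cystine transporter gene Slc7a11, the pseudokinase gene Trib3 and the asparagine synthetase gene Asns, with log2 fold changes of 5.98, 5.39 and 2.46. The one gene of the list that was not called was Ddit3, singled out after its values were seen. Ddit3 encodes CHOP, and it measured 36.4, 38.7, 37.2 and 38.5 CPM in TG and 32.5, 30.5, 35.3 and 31.6 CPM in WT (log2 fold change 0.22, adjusted p = 0.126). Counts under Atf4 itself were lower in TG, 260.7 ± 19.8 CPM against 351.8 ± 21.1 CPM (SD, n = 4 each), with a log2 fold change of −0.43 and an adjusted p of 0.00226. Reads from the transgene need not have been assigned to Atf4, so its counts are no check of the labels.

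Several gene groups moved with Ppp1r15a. Of 14 immediate early genes, which respond within minutes to stress or tissue handling, 5 rose and 0 fell, beside 12.1% of all tested genes called higher. Their median log2 fold change was 0.61, and summed levels were 1322 to 1708 CPM in TG and 767 to 1512 CPM in WT. Klf4, Ier3 and Klf2 led that list, with log2 fold changes of 1.01, 1.29 and 1.11. With that list's mean log2 CPM as a covariate, the log2 fold change of Ppp1r15a was 0.11 (SE 0.14, adjusted p = 0.738). It was 0.16 (adjusted p = 0.715) with the interferon list as the covariate, 0.15 (adjusted p = 0.891) with the endothelial and stromal lists, and −0.044 (adjusted p = 0.950) with the macrophage and lymphocyte list. With the acinar list it was 0.36 and still called. Several of these lists separate TG from WT, so the group and the covariate share much of their variation. The median standard error over all genes rose from 0.207 to 0.403 and 0.410 with the endothelial and stromal and the macrophage and lymphocyte covariates. It rose less, to 0.293 and 0.305, with the immediate early and the interferon covariates. For Ppp1r15a the SE was 0.12 with group alone and 0.14 with the immediate early covariate. These fits therefore cannot tell the part of other cell types or of handling apart from that of the group. That part in the rise of Ppp1r15a was not tested.

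Single libraries also decided the call. TG replicate 2 had the highest Ppp1r15a level, and it had high levels of the macrophage genes Lyz2 (273.8 CPM) and Itgam (11.4 CPM), as did TG replicate 3 (189.3 and 11.4 CPM). TG replicates 1 and 4 had 56.6 and 37.1 CPM of Lyz2, and no WT library exceeded 26.8 CPM. Within TG, Adgre1, Cd68 and Csf1r of the same list were also highest in replicates 2 and 3, but Cd14, Ptprc, C1qb and Cd79a were not. Cd14 was highest in TG replicate 1 (11.6 CPM), and C1qa had a log2 fold change of −0.05 between groups. Ppp1r15a was lower in TG replicate 3 (81.4 CPM) than in TG replicate 1 (83.2 CPM). A link between these genes and Ppp1r15a was not tested. Without TG replicate 2 the log2 fold change was 0.33 (adjusted p = 0.0593), without WT replicate 4 it was 0.35 (adjusted p = 0.0556), and without TG replicates 2 and 3 together it was 0.28 (adjusted p = 0.214). Ppp1r15a was called under 15 of the 22 alternative settings, with log2 fold changes between −0.044 and 0.51 over all of them.

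**Figure D2:**
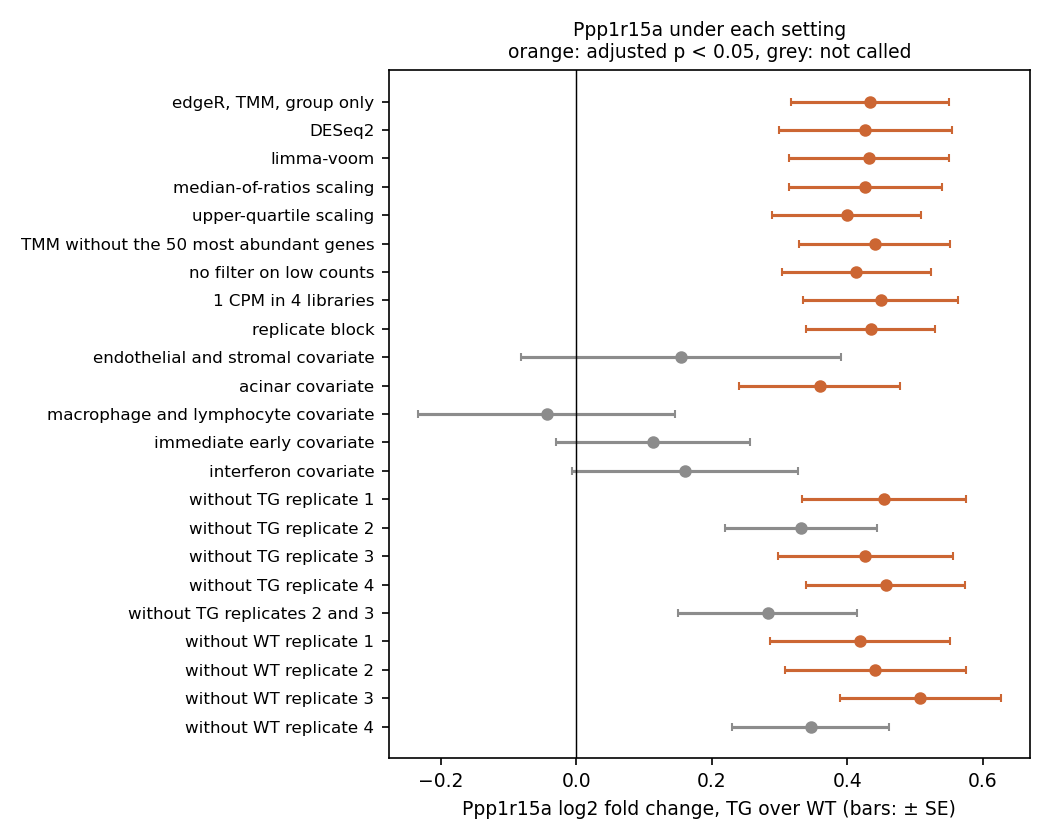
Log2 fold change of Ppp1r15a, TG over WT, under the edgeR fit with group as the only term and under 22 alternatives (points, with bars of ± SE, orange where the adjusted p is under 0.05). The estimates stay near 0.43 under other tools, scalings and filters and lie between −0.044 and 0.16 with the endothelial and stromal, macrophage and lymphocyte, immediate early or interferon covariate.

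Ppp1r15b (ENSMUSG00000046062) encodes CReP, the partner of protein phosphatase 1 that works without stress. Its level was 79.3, 78.7, 85.8 and 87.7 CPM in TG and 72.5, 66.6, 71.9 and 81.7 CPM in WT. The groups overlapped through WT replicate 4 alone. Means of 82.9 ± 4.55 CPM and 73.2 ± 6.29 CPM (SD, n = 4 each) gave a log2 fold change of 0.18 (SE 0.088, interval −0.01 to 0.37, edgeR adjusted p = 0.178).

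Whether the 2 subunits responded unequally was tested on their ratio. Ppp1r15a CPM divided by Ppp1r15b CPM was 1.05, 1.31, 0.949 and 0.868 in TG and 0.862, 0.984, 1.03 and 0.641 in WT. The values of the groups overlapped. The mean log2 ratio was 0.25 higher in TG, and an exact two-sided permutation test over 70 arrangements gave p = 0.314, where the smallest p this design allows is 0.0286. A larger rise of Ppp1r15a than of Ppp1r15b was therefore not shown. The catalytic subunits of protein phosphatase 1, which both partners share, had log2 fold changes of −0.01 (Ppp1ca), −0.15 (Ppp1cb) and 0.11 (Ppp1cc), and edgeR called none of the 3, with 0 at an unadjusted p under 0.05.

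The substrate and its exchange factor showed no call. Of the 4 member genes for eIF2alpha and eIF2B, edgeR, DESeq2 and limma-voom each called 0, with 0 at an unadjusted p under 0.05. Eif2s1 (ENSMUSG00000021116), the gene of the phosphorylated subunit eIF2alpha, measured 91.2, 92.1, 93.9 and 124.3 CPM in TG and 111.0, 104.9, 94.0 and 125.1 CPM in WT. The TG libraries sat low except replicate 4, which equalled the highest WT library to within 1 CPM. Means were 100.4 ± 16.0 CPM and 108.7 ± 13.0 CPM (SD, n = 4 each), a log2 fold change of −0.12 (SE 0.11, interval −0.36 to 0.13, edgeR adjusted p = 0.544). Without TG replicate 4 it was −0.27 (adjusted p = 0.0851). With the endothelial and stromal, macrophage and lymphocyte, immediate early or interferon covariate it was 0.27, 0.36, 0.20 and 0.22 (adjusted p from 0.410 to 0.755), so the direction turned while no call was made.

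Eif2b1 (ENSMUSG00000029388) encodes the alpha subunit of eIF2B, part of the regulatory core that senses the phosphate on eIF2. It was 29.9, 31.4, 28.4 and 30.0 CPM in TG and 31.6, 31.9, 31.9 and 36.0 CPM in WT. No TG library reached the lowest WT library, yet the gap between the nearest libraries was under 1 CPM. The log2 fold change was −0.13 (SE 0.097, interval −0.34 to 0.07, edgeR adjusted p = 0.383).

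Eif2b4 (ENSMUSG00000029145) encodes the delta subunit, also in the regulatory core. Its values, 32.2, 49.1, 31.4 and 35.8 CPM in TG and 29.8, 41.8, 36.8 and 39.0 CPM in WT, were highest in replicate 2 of each group, and the groups overlapped. The log2 fold change was 0.01 (SE 0.15, interval −0.30 to 0.32, edgeR adjusted p = 0.970).

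Eif2b5 (ENSMUSG00000003235) encodes the epsilon subunit, which holds the exchange activity. It measured 83.5, 89.0, 76.3 and 90.1 CPM in TG and 84.2, 80.3, 98.4 and 99.1 CPM in WT, with overlapping groups. The log2 fold change was −0.09 (SE 0.096, interval −0.30 to 0.11, edgeR adjusted p = 0.551). The remaining eIF2B subunit genes, Eif2b2 and Eif2b3, had log2 fold changes of 0.14 (adjusted p = 0.440) and 0.06 (adjusted p = 0.808).

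Among the genes of the other eIF2 subunits, that of eIF2beta rose. Eif2s2 measured 341.9, 359.1, 325.3 and 379.6 CPM in TG and 208.9, 205.0, 174.0 and 208.9 CPM in WT. Every TG library was far above every WT library, and the means of 351.5 ± 23.3 CPM and 199.2 ± 16.9 CPM (SD, n = 4 each) differed 1.76-fold (interval 1.55 to 2.01, log2 fold change 0.82, SE 0.089, edgeR adjusted p = 1.48e-05). Eif2s2 was called higher under all 22 alternatives, with log2 fold changes from 0.75 to 1.13.

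The gamma subunit is encoded by near-identical copies on the X and Y chromosomes, between which reads can be split in counting. Eif2s3y measured 59.3, 61.3, 54.7 and 71.3 CPM in TG and 75.6, 92.2, 83.1 and 92.9 CPM in WT, with no overlap. It fell from 86.0 ± 8.21 CPM in WT to 61.6 ± 6.99 CPM in TG (log2 fold change −0.48, SE 0.10, 1.39-fold lower, edgeR adjusted p = 0.00362). Eif2s3x measured 48.1 ± 4.07 CPM in TG and 45.4 ± 4.12 CPM in WT (SD, n = 4 each, adjusted p = 0.631). The copies summed to 104, 114.7, 99.9 and 120.3 CPM in TG and 122.0, 137.3, 123.3 and 143.0 CPM in WT, and the groups did not overlap. Sex is not among the sample details used here. The part of a differing mix of sexes in the fall of Eif2s3y, and in this sum, was not tested. The call of Eif2s3y was lost with the endothelial and stromal, macrophage and lymphocyte, immediate early or interferon covariate, and without TG replicates 2 and 3 (log2 fold change −0.44, adjusted p = 0.0515).

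Within each library, the ratio of Eif2s2 to Eif2s1 CPM was 3.75, 3.90, 3.46 and 3.06 in TG and 1.88, 1.96, 1.85 and 1.67 in WT. The lowest TG ratio was above the highest WT ratio, and the ratio was 1.92-fold higher in TG by the mean log2 value. The Eif2s3y to Eif2s3x ratio was 0.676 of that in WT by the same measure. Both ratios were chosen after the values were seen, so they are descriptions and were not tested.

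Per kilobase of merged exons, Eif2s1 made up 20.3% ± 1.75 of the summed eIF2 subunit level in TG and 26.1% ± 1.32 in WT (SD, n = 4 each). The share of Eif2s2 was 52.2% ± 1.23 in TG and 35.1% ± 1.44 in WT, and that of Eif2s3x and Eif2s3y together 27.5% ± 0.748 and 38.8% ± 1.87. Per kilobase of coding sequence the share of Eif2s2 was 66.0% ± 1.47 in TG and 49.2% ± 1.51 in WT. Transcript shares do not measure the assembled complex, whose subunits occur in equal number.

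**Figure D3:**
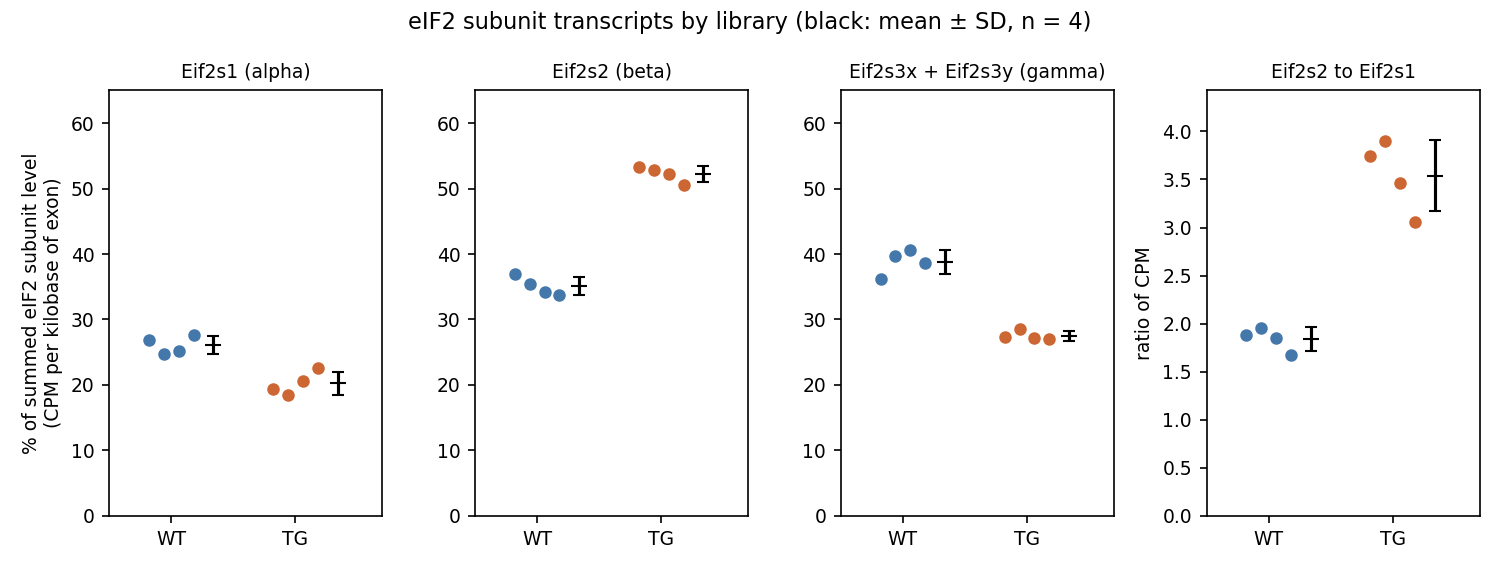
Share of each eIF2 subunit in the summed eIF2 subunit level per kilobase of merged exons (first panels, percent, axis from 0), and the ratio of Eif2s2 to Eif2s1 CPM (last panel), with 1 point per library and the mean ± SD of 4 libraries. The Eif2s2 share is 52.2% in TG and 35.1% in WT, and the ratio is 3.06 to 3.90 in TG and 1.67 to 1.96 in WT.

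Beyond the members, a list of 22 other genes of the pathway gave 1 higher (Eif2s2), 2 lower (Eif2s3y and Dele1) and 19 not called, beside the background of 20.1% of tested genes. The list median log2 fold change was −0.03. Among the inhibitors of the kinases, the log2 fold change was 0.09 for Dnajc3, whose product P58IPK restrains PERK and PKR, −0.13 for Impact, a competitor of GCN2 activation, 0.05 for the adaptor gene Nck1 and −0.05 for Metap2, which shields eIF2alpha. None of these 4 was called by edgeR, with 0 at an unadjusted p under 0.05. The GCN2 activator GCN1, listed as Gcn1l1, had a log2 fold change of −0.18 (adjusted p = 0.222). Hspa5, which encodes the chaperone BiP that holds PERK inactive, measured 2215 ± 213 CPM in TG and 2440 ± 247 CPM in WT (SD, n = 4 each), a log2 fold change of −0.14. The factors that act beside eIF2, Eif5, Cdc123, Eif2a and Eif2d, had log2 fold changes of 0.14, −0.09, 0.16 and −0.17, and edgeR called none, with 0 at an unadjusted p under 0.05.

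**Figure D4:**
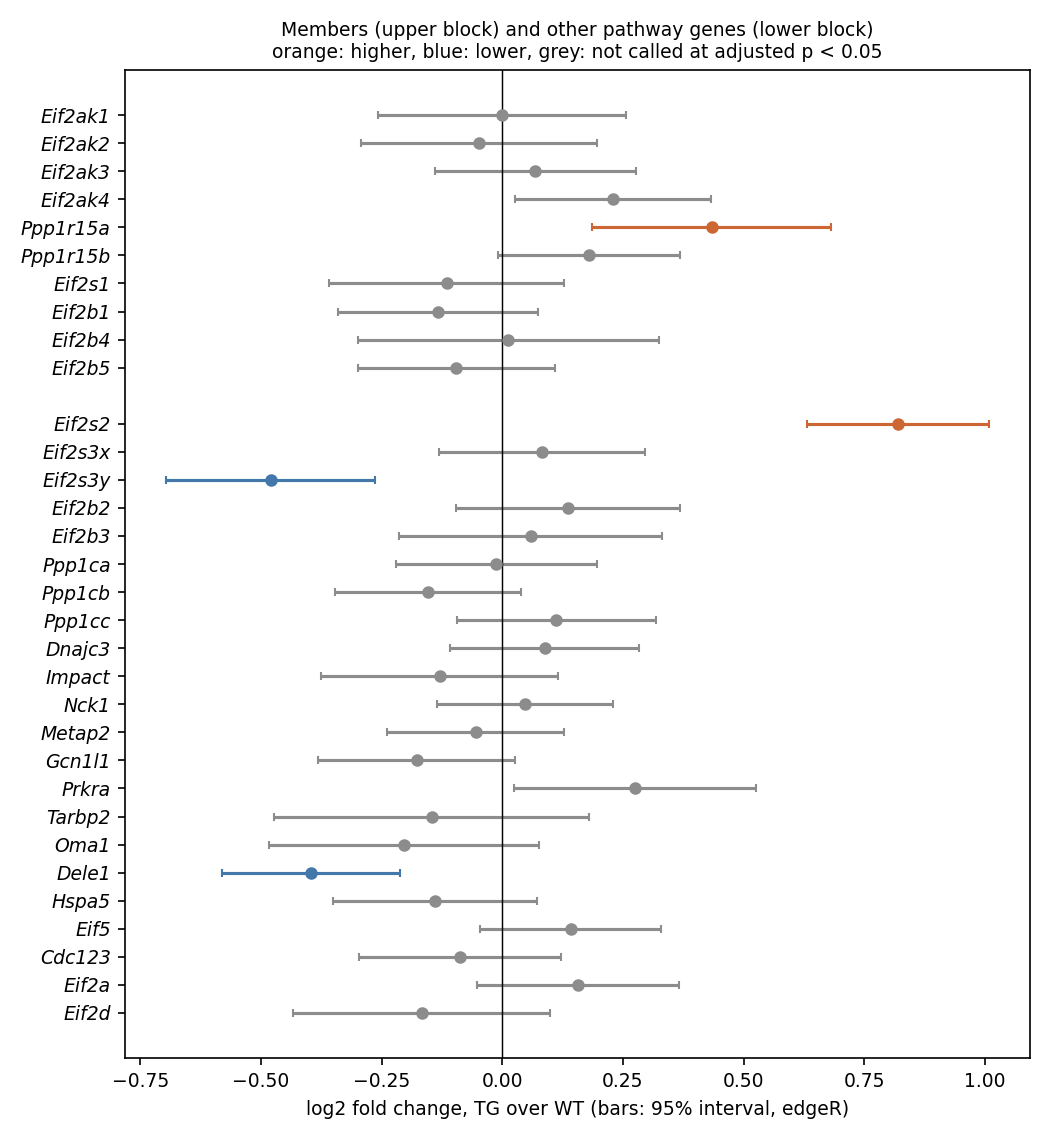
Log2 fold changes, TG over WT, with 95% intervals from edgeR, for the 10 members (upper block) and the 22 other genes of the pathway (lower block), orange where higher, blue where lower and grey where not called. Ppp1r15a (0.43) is the member that was called, and Eif2s2 (0.82), Eif2s3y (−0.48) and Dele1 (−0.40) are the others.

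The members differed in level far more among themselves than between groups. Per kilobase of merged exons in WT, Eif2b5 was highest at 34.9 ± 3.73 CPM per kb, above the range of Eif2s1 at 22.0 ± 2.62 (SD, n = 4 each). Then came Ppp1r15a at 21.7 ± 3.04, Eif2ak3 at 15.6 ± 1.85, Eif2b4 at 14.2 ± 1.98, Ppp1r15b at 13.1 ± 1.12, Eif2b1 at 12.7 ± 0.813 and Eif2ak2 at 11.6 ± 1.50, among which the ranges of neighbours overlapped. Eif2ak4 at 5.81 ± 0.483 and Eif2ak1 at 3.69 ± 0.367 were lowest, each clear of the range of the gene above it. In TG, Ppp1r15a stood at 29.3 ± 4.01 CPM per kb and Ppp1r15b at 14.8 ± 0.813. Per kilobase of coding sequence the order changed, and in WT Eif2s1 came first at 115.1 ± 13.8 and Eif2ak4 last at 8.15 ± 0.677.

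Over the 8 libraries, the log2 CPM of Ppp1r15a was compared with that of 11309 tested genes whose mean reached 5 CPM. Members and unnamed, clone-based and pseudogene symbols were left out. The genes that followed Ppp1r15a most closely were Ctsz, Slc9a3r2 and Slc48a1, with Pearson correlations of 0.986, 0.982 and 0.977. These are descriptions over libraries that share the group difference and the cell mixture.

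Exons of 6 members overlap genes on the opposite strand in the GENCODE annotation, and whether reads were counted by strand is not known here, so reads of such pairs may not be told apart. Counted per overlapping gene, the share of merged exon length was largest for Ppp1r15b (11.4%, Gm26616), Eif2ak1 (8.59%, Aimp2), Eif2ak3 (8.05%, Gm43292) and Eif2b4 (7.85%, Snx17). It was 3.4% for Eif2ak2 (Gm26637) and 0.409% for Ppp1r15a (Tulp2). Eif2ak1 also overlapped Ankrd61 (3.03%), and Eif2ak2 also overlapped n-R5s29 (0.919%). Eif2ak4, Eif2s1, Eif2b1 and Eif2b5 had no such overlap.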

How the data were processed

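The deposited values are whole-number read counts per Ensembl gene, not normalized, 1 table per library. The submitters' processing notes list STAR 2.7.10a, HTSeq 0.11.3 and the build mm39, and no strand setting was found in the labels. Entries that name no gene (reads outside genes, 25.3% to 31.5% of a table, and ambiguous reads, 3.74% to 4.36%) were left out. Symbols, for 52081 of 55414 identifiers, and exon lengths came from GENCODE M21 (GRCm38). Promoter windows came from the RefSeq GRCm38.p6 table by symbol, and 9 of 10 members matched.

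Counts were filtered with filterByExpr (minimum count 10), scaled by TMM and fitted in R 4.3.3 with edgeR 4.0.16, whose robust two-sided quasi-likelihood test had group as its one term, with Benjamini-Hochberg adjustment over 20509 genes and calls at an adjusted p under 0.05. The SE is the log2 fold change divided by the root of the F statistic. CPM use effective library sizes. In the smallest library 3 counts equal 0.182 CPM by its unscaled count total. This step was first run on simulated counts, which held no shift in cell mixture and so are no check of the calls made here. Replicates were no duplicates (chi-square per gene 16.9 to 56.7).

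The members and lists were chosen with earlier results of these data known. The named genes are the 10 members, the 22 other pathway genes, Atf4, the 3 genes of lowest adjusted p in the target, interferon and immediate early lists, and the 3 genes most like Ppp1r15a. Alternatives were DESeq2 1.42.0, voom of limma 3.58.1, other scalings and filters, list covariates, a replicate block and left-out libraries. Leaving out TG replicates 2 and 3 together was chosen after seeing the data.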

Additional observations from a re-analysis of the deposited data

Results flagged for a closer look

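In 90 groups of 4 libraries checked, 7 held a library whose gap to its nearest neighbour exceeded the 95% critical value of Dixon's test, as a share of the group's range, where chance alone flags about 1 group in 20, or 4.5 groups here. Among the members, WT replicate 3 was lowest for Eif2ak4 at 38.0 CPM (the others 45.0 to 45.3 CPM), TG replicate 4 was highest for Eif2s1 at 124.3 CPM (the others 91.2 to 93.9 CPM), and WT replicate 4 was highest for Eif2b1 at 36.0 CPM (the others 31.6 to 31.9 CPM). Among other pathway genes, Eif2s2 had its lowest WT value of 174.0 CPM in replicate 3, Tarbp2 its highest WT value of 16.1 CPM in replicate 1, and Eif5 its lowest TG value of 164.7 CPM in replicate 1. In the interferon list, Oasl2 had its lowest TG value of 10.7 CPM in replicate 4. Without the library concerned, Eif2ak4, Eif2s1 and Eif2b1 were still not called and Eif2s2 still was, but the log2 fold change of Eif2s1 moved from −0.12 to −0.27 (edgeR adjusted p = 0.0851).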

How the results depend on the processing

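For 45 named genes under 22 alternatives, 879 of 990 values kept their direction and their side of the threshold, 55 changed sign but were called in neither fit, 53 lost the call and 3 reversed. The reversed values were −0.044 for Ppp1r15a and −0.036 for Slc9a3r2 with the macrophage and lymphocyte covariate and −0.13 for Klf2 with the endothelial and stromal covariate (log2). Beside 4129 genes called by the fit with group alone, 345 were called with the endothelial and stromal covariate, 334 with the macrophage and lymphocyte, 1199 with the immediate early and 882 with the interferon covariate, and 2254 without TG replicates 2 and 3 (2864 to 4404 without 1 library each). Under those 5 settings edgeR called 0 members, with 1, 0, 2, 0 and 0 at an unadjusted p under 0.05. It also called 0 without TG replicate 2 or WT replicate 4 (1 and 3 unadjusted), so the count ran from 0 to 1 over single libraries left out. Of the other pathway genes, 1 was called in all and 0 lower with the endothelial and stromal, macrophage and lymphocyte and interferon covariates, and 2 in all and 1 lower with the immediate early covariate and without TG replicates 2 and 3. The cause was not tested.

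A pairing of libraries by replicate number was not shown, and so few libraries cannot exclude one. Deviations of same-numbered libraries correlated between −0.03 and 0.08, and those of different numbers between −0.15 and 0.13. With the replicate block 4673 genes and 1 member were called, and Ppp1r15a had a log2 fold change of 0.43 (adjusted p = 0.00515). The median standard error over all genes was 0.188 with the block and 0.207 with group alone. The log2 ratio of Ppp1r15a to Ppp1r15b was 0.25 higher under the block (exact sign-flip p = 0.25; this test cannot go below 0.125) and 0.11 to 0.34 higher without 1 library each. With 4 libraries a group, the median standard error of a member was 0.11 on the log2 scale, which limits the changes that could be called.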
